A study of Mus musculus with 11 samples.

Results

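Mesenchymal progenitors of mouse hindlimb muscle, also called fibro/adipogenic progenitors, were compared between animals with normal and with stabilised beta-catenin across all genes. These sorted cells make up 6 of the 11 samples of the series and were chosen by their labels and their columns in the deposited count table: 3 WT libraries (animals 74A2, 72B8 and 73C3) and 3 WT/flox libraries (74A1, 72B7 and 74A3). The WT/flox animals carried 1 Ctnnb1 allele with loxP sites around exon 3 and 1 wild-type allele; the WT animals, as labelled, carried no such allele. The strain is described with Hic1CREERT2, a Cre recombinase that tamoxifen switches on and that the Hic1 locus drives, and a Td.tomato reporter; WT cells passed the same tdTomato gate and are also dated from tamoxifen. Cells were sorted as CD45-, CD31-, Sca1+, tdTomato+ and alpha7-, from resting muscle. All 3 WT libraries and 74A1 and 72B7 are labelled day 14 after tamoxifen, whereas 74A3 is labelled day 56, so that for 74A3 the animal and the day cannot be told apart. The ages of the animals are not stated in the labels. Cre acts wherever Hic1 is expressed, and the sort keeps only cells in which the reporter had been switched on.

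Beta-catenin, the product of Ctnnb1, is the messenger of canonical Wnt signalling. Without a Wnt signal a complex of Axin, Apc, casein kinase 1 and Gsk3 phosphorylates its amino-terminal end and marks it for destruction; with a signal it builds up, enters the nucleus and switches on genes together with TCF/LEF factors. Many of those genes encode inhibitors of the pathway, so that their transcripts serve as a gauge of its activity. In muscle, these progenitors make most of the interstitial matrix and secrete factors that act on fibres, nerves, vessels and muscle stem cells.

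The change in the allele is shown first because every comparison rests on it. Exon 3 of Ctnnb1 (GENCODE M21 model, GRCm38, chr9:120950522-120950749, plus strand) is 228 bases long and contributes to codons 5 to 81. Its loss removes 76 codons and keeps the reading frame. The capitals mark the codons of serine 33 (TCT), serine 37 (TCT), threonine 41 (ACC) and serine 45 (TCC), the residues that are phosphorylated before degradation.
Ctnnb1 exon 3: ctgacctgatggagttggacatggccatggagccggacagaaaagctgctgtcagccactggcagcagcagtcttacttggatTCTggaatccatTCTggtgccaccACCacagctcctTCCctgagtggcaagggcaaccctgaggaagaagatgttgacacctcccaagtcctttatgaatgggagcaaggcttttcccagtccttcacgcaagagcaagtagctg

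Exon 3 is 6.29% of the 3623-base, 15-exon transcript, and the table gives 1 count per gene, so its removal was not measured here. Levels are given in CPM, counts divided by the TMM-scaled size of the library, listed as 74A2, 72B8 and 73C3 for WT and as 74A1, 72B7 and 74A3 for WT/flox. Ctnnb1 itself was at 460.04, 459 and 526 CPM in WT and at 404, 378 and 424 CPM in WT/flox. The groups did not overlap, but the difference did not pass the test (log2 fold change -0.26, SE 0.17, edgeR adjusted p = 0.673). Hic1, which drives the recombinase, was at 105, 109 and 87.4 CPM in WT and 76.3, 76.3 and 99.4 CPM in WT/flox, with overlapping groups (adjusted p = 0.711).

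The labels of the sort were checked against its genes. Ly6a, which encodes Sca1, stood at 515, 623 and 982 CPM in WT and 805, 823 and 827 CPM in WT/flox. The genes of the excluded surface proteins were low in all 6 libraries. Pecam1 (CD31) reached 9.88 CPM at most and Itga7 (alpha7) 4.05 CPM, both overlapping between genotypes, and the 20 immune markers together took at most 0.00316% of counts. Pdgfra, the receptor that defines these cells, was at 1836, 1751 and 1553 CPM in WT and 1098, 1274 and 1335 CPM in WT/flox, a difference that did not pass (adjusted p = 0.292).

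The 6 libraries held 13119843 to 16805238 counts over 14784 to 15058 genes. With 1 female and 2 male animals in each genotype, sex was balanced. Of 12392 genes tested with edgeR's quasi-likelihood test and Benjamini-Hochberg adjustment, 290 were called higher in WT/flox (2.34%) and 164 lower (1.32%), at an adjusted p under 0.05. Both shares are the background for the counts of called list members below. At an unadjusted p under 0.05 the share was 12.5%; DESeq2 called 6.09% and limma voom 3.29% in either direction. Libraries did not overlap, with WT/flox higher, for 8.73% of genes and, with WT/flox lower, for 8.17%. P-values measure the spread between animals. All 454 called genes were non-overlapping, so a lack of overlap given below for a called gene is not separate support for its call. All 454 had the same sign without 74A3, but without overlap between genotypes, leaving out a library could hardly change a sign. The kept sign is therefore not separate support. In the day-14 libraries alone the test called 1.56% of genes higher and 0.525% lower; with 2 WT/flox animals in that fit, 255 of the 454 were called.

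**Figure D1:**
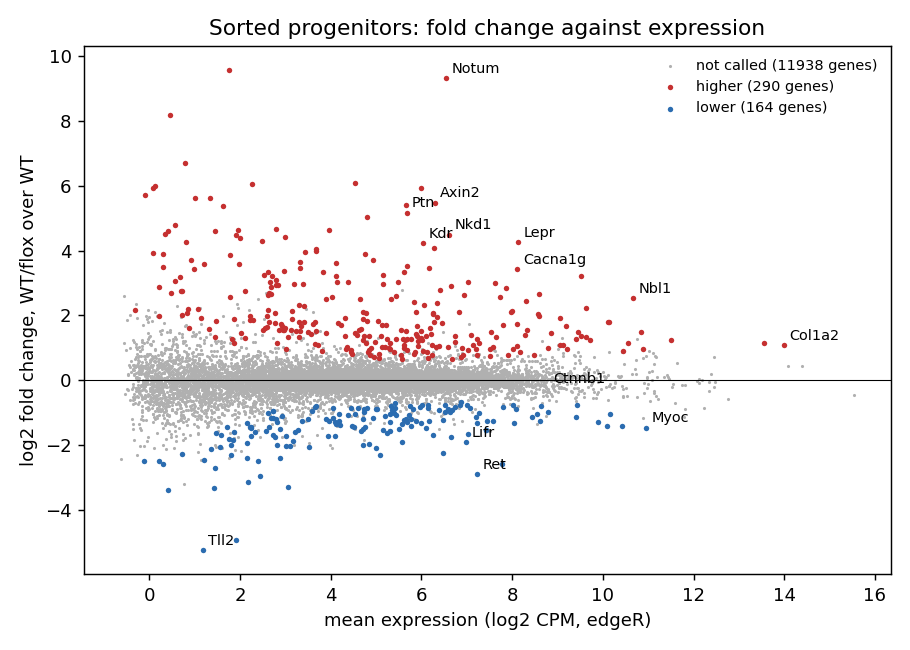
Fold change of each of the 12392 tested genes (vertical axis, log2 of WT/flox over WT) against its mean expression (horizontal axis, log2 CPM), n = 3 libraries per genotype. Red points are the 290 genes called higher and blue points the 164 called lower; 70 rises but only 6 falls reach 8-fold.

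The rises were larger than the falls. The median log2 fold change was 1.77 over genes called higher and -1.30 over genes called lower, against 0.00 over all genes tested, and 70 genes rose at least 8-fold while 6 fell as far. Genes that rose stood at a median of 11.6 CPM in WT and genes that fell at 39.0 CPM. The WT level is part of the comparison that chose both sets, so these medians describe the sets and test nothing. As a share of all counts, the 290 higher genes took 3.65, 3.96 and 3.64% of the WT libraries and 9.23, 9.02 and 9.34% of the WT/flox libraries. These genes were chosen for being higher, so the shares describe the size of the change and test nothing. The 164 lower genes went from 2.55, 2.45 and 2.21% to 0.968, 1.01 and 0.985%. Type I collagen, encoded by Col1a1 and Col1a2, made up 1.71, 2.02 and 1.72% of WT counts and 4.09, 3.66 and 3.66% of WT/flox counts. In bulk RNA, fewer cells of a type and less RNA per cell cannot be told apart, and this holds for each change described here.

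Transcripts of Wnt feedback inhibitors rose in WT/flox cells. Axin2, a scaffold of the destruction complex, was at 3.64, 4.07 and 2.71 CPM in WT and 136, 169.7 and 156 CPM in WT/flox. Nkd1, a Dishevelled-binding inhibitor, was at 9.200, 8.28 and 7.35 CPM and 216, 186 and 157 CPM. Library 74A3 lay between the day-14 libraries for Axin2 and below both for Nkd1, and for both genes the gap to WT was many times the spread within a genotype. Notum, a secreted enzyme that strips the lipid from Wnt proteins, was at 0.0662, 0.0753 and 0.647 CPM in WT and 223, 193 and 142 CPM in WT/flox. The WT libraries held almost no Notum transcript, and 74A3 was the lowest WT/flox library. Tcf7, which encodes the factor TCF1, went from 0.0662, 0.151 and 0.176 CPM to 8.88, 9.51 and 9.55 CPM (log2 fold change 6.05, SE 0.36, edgeR adjusted p = 3.1e-05).

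Of 18 tested Wnt target and feedback genes 10 rose and 0 fell, with a median log2 fold change of 1.74; at an unadjusted p under 0.05, 12 were higher and 1 lower, and DESeq2 and limma voom each called 10 higher and 0 lower. This list was drawn up with earlier results of these data known. Apcdd1, a membrane-bound Wnt inhibitor, rose by 2.85 (SE 0.18), and Dkk2, a secreted antagonist of the Lrp co-receptors, by 2.65 (SE 0.20) on the log2 scale. Tnfrsf19, a receptor of the tumour necrosis factor family, was at 0.463, 0.979 and 2.06 CPM in WT and 32.3, 29.1 and 28.1 CPM in WT/flox, with the WT/flox libraries close together. Ccnd1, the cyclin D1 gene, was at 16.6, 38.03 and 35.4 CPM and 132, 86.6 and 152 CPM, so both genotypes were spread but did not overlap (2.04, SE 0.32). Twist1, a mesenchymal transcription factor, rose less (0.68, SE 0.14), and its call was lost without 74A2, 72B8, 74A1, 72B7 or 74A3 (adjusted p up to 0.134). Dkk1, a relative of Dkk2, was left out by the count filter, with 0 counts in WT and 79 in WT/flox. It did not reach the filter's minimum of about 10 counts in every WT/flox library, so these counts were unevenly spread between animals. Set against a floor of 3 counts for the summed WT libraries, the Dkk1 sum was at least 29.6-fold higher.

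**Figure D2:**
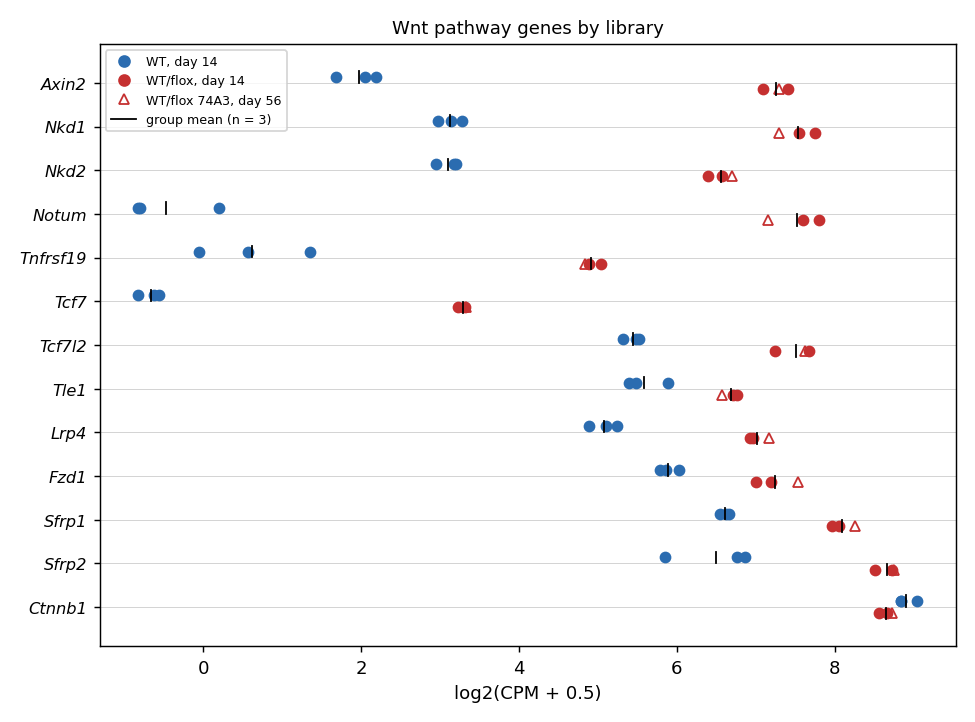
Expression of 13 Wnt pathway genes in each library, on a log2(CPM + 0.5) axis; blue circles are WT at day 14, red circles WT/flox at day 14, the open triangle is WT/flox library 74A3 at day 56, and black ticks are means of n = 3. The genotypes lie far apart for Axin2, Nkd1, Notum and Tcf7 and close together for Ctnnb1, and the triangle falls with the other red points.

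The intracellular machinery below the receptors was mostly level. Among 37 destruction-complex members, TCF/LEF factors and co-factors, 2 were called higher and 0 lower (unadjusted, 3 and 0, and by DESeq2 and limma voom, 2 and 0 each). The median was 0.06, and the share called was 5.41%, against 2.34% higher and 1.32% lower over all genes tested. The 2 were Tcf7l2, a TCF factor that also marks these cells, at 45.6, 39.4 and 44.1 CPM in WT and 203, 152 and 198 CPM in WT/flox, and Tle1, a Groucho-type co-repressor of TCF, at 41.4, 58.6 and 44.2 CPM and 109, 105 and 94.9 CPM. Tle1 was the smaller rise (1.10, SE 0.17, edgeR adjusted p = 0.00675). Both passed in each fit that left out 1 library.

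Receptors and carriers of Wnt proteins rose more often: of 39 tested genes for ligands, receptors and their secreted modulators, 13 rose and 0 fell, with a median of 0.23. At an unadjusted p under 0.05, 14 were higher and 8 lower; DESeq2 called 14 higher and 3 lower, limma voom 13 and 0. By edgeR, lower members numbered 2 without 74A2 and 1 without 73C3. Lrp4, a co-receptor that binds Wnt inhibitors and organises the neuromuscular junction, was at 37.4, 33.97 and 29.2 CPM in WT and 125, 121 and 143 CPM in WT/flox, a change (1.95, SE 0.16, edgeR adjusted p = 1.4e-04) well past the spread within either genotype. Ror2, a receptor for Wnt5a-type ligands, rose from 26.02 ± 0.344 to 51.7 ± 1.11 CPM (SD, n = 3 each), with little spread in either genotype. Ptk7, a pseudokinase co-receptor, was at 11.4, 5.95 and 7.06 CPM and 31.6, 33.5 and 17.9 CPM, and Fzd2 at 46.3, 46.1 and 66.1 CPM and 107, 105 and 109 CPM. The call for Ptk7 was lost without 73C3 or 72B7 (adjusted p up to 0.0678), and that for Fzd2 without 72B8, 72B7 or 74A3 (up to 0.0636).

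Among the ligand genes, Wnt9a and Wnt10a were called. Wnt9a was at 26.4, 34.9 and 37.3 CPM in WT and 80.5, 69.1 and 131 CPM in WT/flox (1.51, SE 0.25), and 74A3 was its highest library. Wnt10a, at no more than 0.177 CPM in WT, reached 1.32, 3.54 and 2.199 CPM in WT/flox. Wls, the carrier that takes Wnt proteins to the cell surface, was at 149, 169 and 218 CPM and 447, 326 and 341 CPM, with a call that was kept only in the fit without 73C3 among the 6 that left out 1 library (adjusted p up to 0.108). The secreted frizzled-related protein Sfrp4 was at 108, 165 and 188 CPM and 628, 451 and 762 CPM; the genotypes did not overlap (1.998, SE 0.27). Cpz, a carboxypeptidase with a frizzled-like domain, was at 3.97, 16.8 and 15.4 CPM and 80.3, 73.7 and 49.9 CPM, with a call lost without 73C3 or 72B7 (up to 0.0839).

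**Figure D3:**
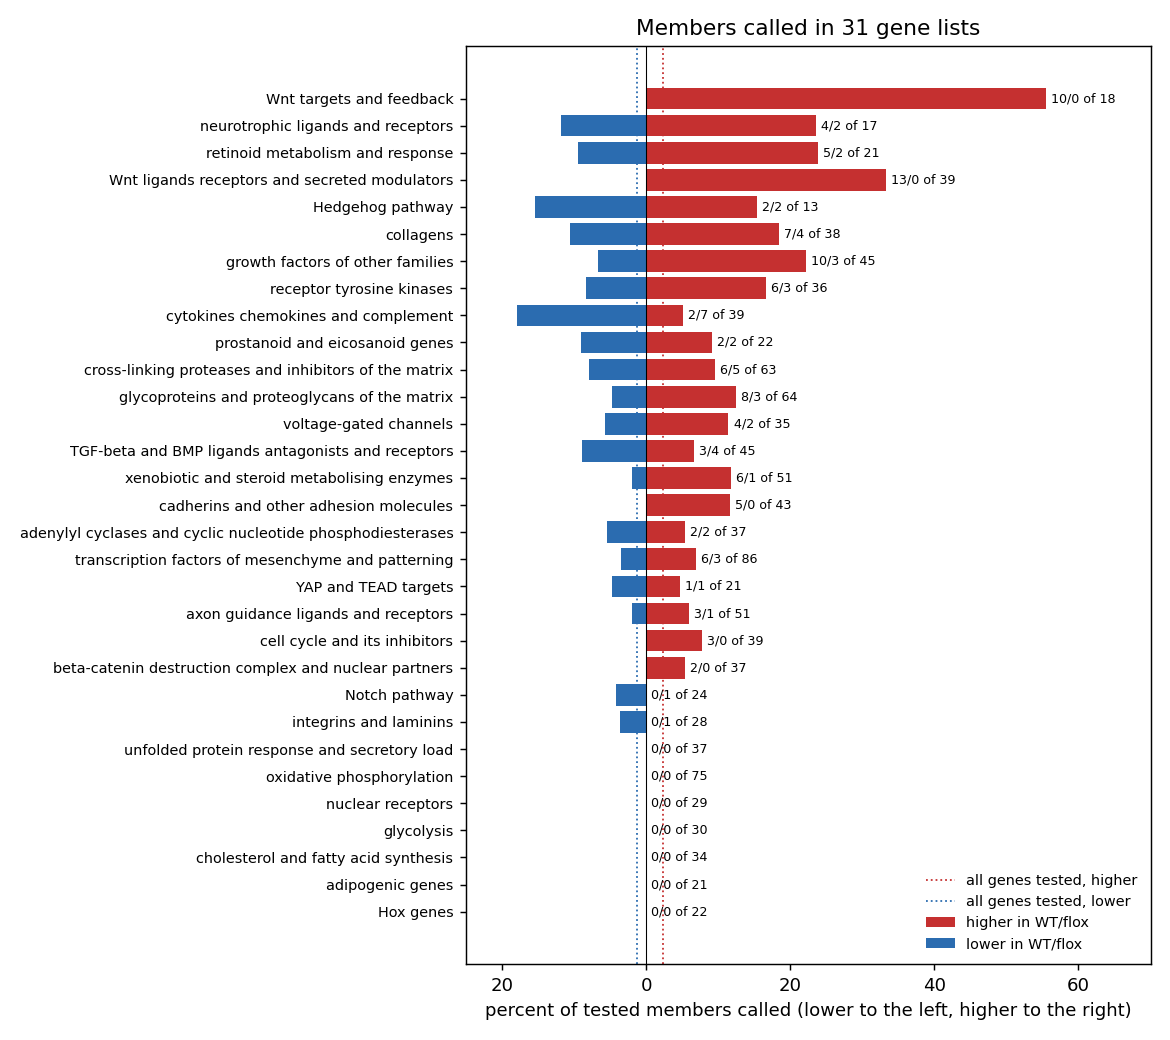
Percent of tested members called in each of 31 gene lists, lower to the left in blue and higher to the right in red; labels give the numbers higher and lower of those tested, and dotted lines mark the shares over all genes tested (2.34% higher, 1.32% lower). The Wnt target list reaches furthest to the right at 10 of 18, and 7 lists, among them oxidative phosphorylation and Hox genes, have no called member.

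Other signalling pathways were touched at a few points. In the Hedgehog list 2 of 13 tested members rose and 2 fell, with a median of 0.03. The 2 that rose are co-receptors that help cells bind Hedgehog: Cdon was at 319, 385 and 392 CPM in WT and 957, 976 and 1155 CPM in WT/flox, and Gas1 at 543, 449 and 506 CPM and 1039.8, 1229.8 and 1289.9 CPM. Neither overlapped between genotypes. Hhip, which binds the ligand and is itself switched on by it, fell; it was at 27.1, 22.3 and 29.4 CPM and 11.2, 7.81 and 11.1 CPM (-1.39, SE 0.20, edgeR adjusted p = 0.0036). Gli1, the usual gauge of the pathway, was at 33.7, 24.4 and 16.9 CPM and 24.1, 32.4 and 23.4 CPM, with overlapping groups (adjusted p = 0.987); it is given here after its value was seen. The list's lower members numbered 1 without 72B8, 74A1, 72B7 or 74A3.

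Among 45 tested ligands, antagonists and receptors of the TGF-beta and BMP families 3 rose and 4 fell, with a median of 0.05; DESeq2 called 6 in each direction. Nbl1, a secreted BMP antagonist of the DAN family, was at 454, 438 and 538 CPM in WT and 2476, 3113 and 2722 CPM in WT/flox (2.54, SE 0.20, edgeR adjusted p = 1.1e-04). Apart from Col1a1 and Col1a2, only Itih5 gained more CPM among called genes. Inhba, which encodes the subunit of activin A, was at 8.93, 17.5 and 9.82 CPM and 108, 127 and 161 CPM, highest in 74A3. The ligand genes Bmp6 (28.5, 48.4 and 36.2 CPM and 12.3, 12.97 and 13.1 CPM) and Gdf10 (139.8, 182 and 273 CPM and 62.4, 59.3 and 65.2 CPM) fell. For both, the 3 WT/flox libraries lay close together while the WT libraries were spread. Bmper, a BMP-binding protein, fell from 206 ± 6.03 to 103 ± 16.1 CPM and Fst, which traps activin, from 245 ± 27.7 to 103 ± 27.7 CPM (SD, n = 3 each). Their calls were lost without 74A1 or 74A3 for Bmper (adjusted p up to 0.0637) and without 72B7 for Fst (0.0504). The third rise, Nog, was called with all 6 libraries only (up to 0.227 with 1 left out). In the Notch list 0 of 24 rose (1 unadjusted, 0 by DESeq2 or limma voom) and 1 fell, the effector Heyl (-1.26, SE 0.28). The share called, 4.17%, was close to that over all genes tested (2.34% higher and 1.32% lower). The Heyl call was kept only without 72B8 (otherwise edgeR adjusted p up to 0.176). Of 21 YAP and TEAD targets, Dock5 rose (2.49, SE 0.31) and F3, which encodes tissue factor, fell (-1.52, SE 0.20). The share called there, 9.52%, rests on these 2 genes.

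Receptors for growth factors changed in both directions: 6 of 36 tested receptor tyrosine kinases rose and 3 fell, with a median of -0.09. Kdr, the main VEGF receptor, was at 2.65, 9.49 and 7.82 CPM in WT and 169, 88.9 and 117 CPM in WT/flox, and its co-receptor Nrp2 at 18.00, 31.3 and 21.4 CPM and 128, 176 and 231 CPM. The ligand gene Vegfc, whose product binds both, was at 18.3, 16.9 and 14.2 CPM and 61.1, 52.5 and 47.2 CPM. Genotypes did not overlap for any of the 3, and all passed with each library left out. Kdr is an endothelial gene as well, and beside its rise the list of endothelial markers gave 1 call higher (Kdr) and 1 lower (Plvap) of 18, with Pecam1 at 6.83 ± 3.99 and 5.82 ± 0.903 CPM. Fgfrl1, an FGF receptor that lacks the kinase, was at 24.8, 21.5 and 21.1 CPM and 87.7, 144 and 102 CPM, and Fgfr2 at 3.38, 5.05 and 3.41 CPM and 12.3, 9.28 and 12.7 CPM. Egfr fell from 501 ± 68.3 to 245 ± 34.1 CPM (SD, n = 3 each; -1.03, SE 0.19), a call lost without 72B8, 74A1, 72B7 or 74A3 (adjusted p up to 0.086). The Egfr ligand gene Btc fell too (-1.30, SE 0.30), with a call kept only without 74A2 (otherwise up to 0.171).

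Neurotrophic genes changed in both directions: 4 of 17 tested rose and 2 fell, with a median of -0.02. Ntrk2, the receptor of BDNF, was at 212, 258 and 278 CPM in WT and 628, 740.1 and 679 CPM in WT/flox. Ntf3, encoding neurotrophin 3, went the other way, from 38.8, 30.5 and 26.7 to 12.6, 13.4 and 10.1 CPM, and neither gene overlapped between genotypes. Ret, the signalling receptor of GDNF, was at 354, 279 and 159 CPM and 29.1, 31.5 and 45.2 CPM, whereas Gfra1, which presents GDNF to Ret, was at 170.3 ± 37.9 and 139 ± 24.1 CPM and did not pass (adjusted p = 0.732). Gdnf summed to 3 counts in WT and to 151 in WT/flox, 56.6 times as many after scaling, with an exact 95% interval for counting error of 18.99 to 277. Ptn, the heparin-binding factor pleiotrophin, was at 2.32, 3.92 and 2.12 CPM and 128, 113 and 56.2 CPM (5.16, SE 0.38), with 74A3 below both day-14 WT/flox libraries.

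The receptor genes for leptin and for leukaemia inhibitory factor changed in opposite directions. Lepr, the leptin receptor gene, was at 24.9, 23.9 and 34.5 CPM in WT and 676, 323 and 594 CPM in WT/flox (4.26, SE 0.31, edgeR adjusted p = 9.0e-05). Lifr, the receptor of leukaemia inhibitory factor, was at 232, 220.4 and 144 CPM and 51.3, 48.5 and 59.8 CPM (-1.90, SE 0.21, adjusted p = 9.2e-04). Neither gene overlapped between genotypes, and both passed with each library left out.

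Secreted growth factors outside those families rose more than they fell: 10 of 45 tested were higher and 3 lower, with a median of 0.26. Wisp2, a CCN-family matricellular protein, was at 34.7, 40.7 and 53.9 CPM in WT and 319, 378 and 349 CPM in WT/flox, and Nov, another of that family, at 372, 489 and 642 CPM and 1575, 1628 and 1988 CPM. Edn3, an endothelin, was at 1.72, 1.21 and 1.12 CPM and 8.66, 16.4 and 8.42 CPM, with 72B7 above the other WT/flox libraries. Igf1 was at 303, 273 and 254 CPM and 1134, 895 and 634 CPM; 74A3 was its lowest WT/flox library but above every WT library. Pthlh, which encodes parathyroid hormone-related protein, rose by 1.27 (SE 0.16), and Fgf16 by 1.89 (SE 0.23). The lower members were Igf2 (-1.56), Fgf1 (-0.87) and Btc, and their number fell to 1 without 72B8, 73C3 or 74A1 and to 0 without 72B7 or 74A3.

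Several other genes for secreted proteins rose. Penk, the precursor of enkephalin peptides, was at 87.2, 152 and 189 CPM in WT and 562, 2175 and 1229 CPM in WT/flox (3.21, SE 0.50). It varied more between WT/flox animals than the genes above, and its call was lost without 73C3 (adjusted p = 0.0523). Spon1, a secreted adhesion protein of the spondin family, was at 241, 280.4 and 308 CPM and 956, 1362 and 1609 CPM. Masp1, a protease of the lectin pathway of complement, was at 1.85, 0.904 and 2.06 CPM and 44.98, 56.1 and 61.5 CPM (5.05, SE 0.28, edgeR adjusted p = 2.3e-05). Enpp2, which encodes autotaxin, the enzyme that makes lysophosphatidic acid, was at 499.7, 429 and 421 CPM and 1019, 1174 and 1231 CPM. None of these 4 overlapped between genotypes. Itih5, a hyaluronan-binding protein of the inter-alpha-trypsin inhibitor family, was at 2243, 1793 and 1129.6 CPM and 4704, 3483 and 4152 CPM (1.26, SE 0.27), and missed without 72B8, 74A1, 72B7 or 74A3 (up to 0.117).

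The chemokines that were called were lower. Cxcl14, which was not called, was higher in every WT/flox library than in any WT library, and its values are given with the subset markers. Of 39 tested cytokines, chemokines and complement genes 2 rose and 7 fell, with a median of -0.17; DESeq2 called 4 higher and 8 lower. Ccl2, a monocyte attractant, was at 10.7, 10.8 and 19.2 CPM in WT and 4.33, 4.49 and 4.55 CPM in WT/flox; Ccl11, which attracts eosinophils, was at 669, 501 and 596 CPM and 308, 265 and 320.01 CPM. Cxcl13, which attracts B cells, was at 3.11, 9.34 and 13.3 CPM and 1.83, 1.47 and 1.21 CPM, with 74A2 near the WT/flox range. Apart from Lifr these calls were fragile. The count of lower members was 3 without 73C3 or 74A1, 2 without 74A3 and 1 without 72B7. Ccl2 missed only without 72B7 (adjusted p = 0.0606), Ccl11 without 74A1, 72B7 or 74A3 (up to 0.0863), and Cxcl13 passed only without 74A2 (otherwise up to 0.126). Cfb, complement factor B, rose (1.55, SE 0.28), a call lost without 72B7 or 74A3 (up to 0.0801). Higher members numbered 4 without 74A1, 1 without 72B8 or 73C3, and 0 without 72B7 or 74A3.

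Matrix genes changed in both directions. Of 38 tested collagen genes 7 rose and 4 fell, with a median of -0.21. DESeq2 called 7 higher and 9 lower, limma voom 7 and 2, and 7 were higher and 14 lower unadjusted, so that the balance of rises and falls changed with the test. Col1a1 was at 7267, 8054 and 6855 CPM in WT and 18535, 15379 and 15766 CPM in WT/flox (1.16, SE 0.20), and Col1a2 at 9278, 11917 and 10165 CPM and 23155, 22139 and 21490.4 CPM (1.09, SE 0.20). Both chains of type I collagen were higher in every WT/flox library than in any WT library, but the call was lost without 74A1 for Col1a1 (adjusted p = 0.0564) and without 74A1, 72B7 or 74A3 for Col1a2 (up to 0.071). Col3a1, the chain of type III collagen, overlapped between genotypes (0.43, SE 0.24, edgeR adjusted p = 0.59). Col12a1, which coats type I fibrils, was at 92.9, 102 and 87.2 CPM and 347, 356 and 544 CPM, highest in 74A3, and Col8a1 at 98.1, 149 and 132 CPM and 387, 347 and 533 CPM. Col28a1, a collagen found near nerves, was at 4.37, 5.72 and 3.59 CPM and 45.6, 25.6 and 39.7 CPM. These 3 passed with each library left out.

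Collagens that fell included Col6a6, a chain of type VI collagen, at 464, 488 and 182 CPM in WT and 82.2, 68.2 and 39.7 CPM in WT/flox, and Col15a1, a collagen of the basement-membrane zone, at 2925, 2071 and 1033 CPM and 728, 832 and 698 CPM. In both, the WT library 73C3 lay far below the other WT libraries but above every WT/flox library. Col6a6 missed without 72B7 (adjusted p = 0.0544), and Col15a1 passed only without 73C3 (otherwise up to 0.191). The number of higher collagens was 4 without 74A1, and that of lower collagens was 11 without 73C3, 2 without 74A2 or 72B8 and 1 without 74A1, 72B7 or 74A3. Col4a1, the main basement-membrane collagen, was at 5833, 5058 and 3048 CPM and 2234, 2857 and 2503 CPM and did not pass (-0.88, SE 0.26, edgeR adjusted p = 0.122). Lamb1, a laminin chain of the same layer, was at 1960.1, 1667 and 1134 CPM and 706, 590.2 and 478 CPM (-1.42, SE 0.25). It was the only one of 28 tested integrins and laminins called, and it missed without 72B7 or 74A3 (edgeR adjusted p up to 0.0763). The share called in this list, 3.57%, was close to that over all genes tested (2.34% higher and 1.32% lower). In that list 0 members were higher by edgeR, 3 at an unadjusted p under 0.05, 2 by DESeq2 and 0 by limma voom, and 2 were lower without 74A2; DESeq2 called 4 lower.

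**Figure D4:**
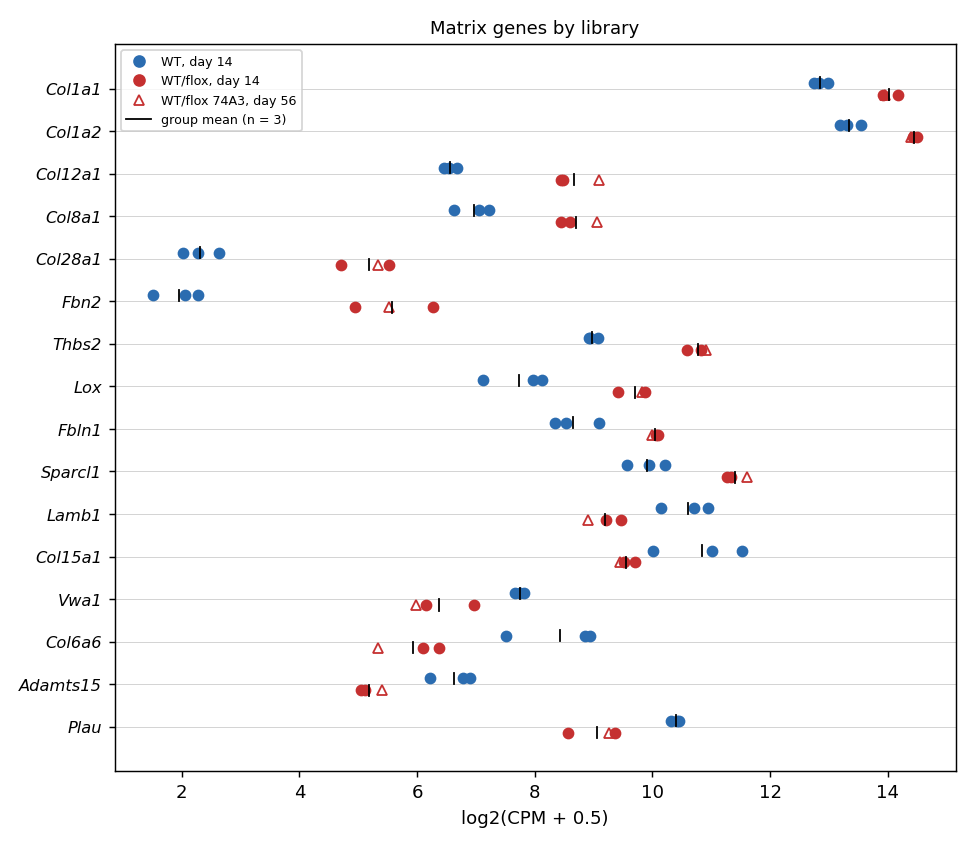
Expression of 16 matrix genes in each library, on a log2(CPM + 0.5) axis, with symbols as for the Wnt genes and black ticks at means of n = 3. Genes from Col1a1 to Sparcl1 are higher in WT/flox and those from Lamb1 to Plau lower, and the WT libraries are most spread for Col15a1 and Col6a6.

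Glycoproteins of the matrix also changed in both directions. Of 64 tested glycoproteins and proteoglycans 8 rose and 3 fell, with a median of 0.01; DESeq2 called 16 higher and 10 lower, limma voom 9 and 3, and 18 were higher and 13 lower unadjusted. Thbs2, an anti-angiogenic thrombospondin, was at 491, 483 and 537 CPM in WT and 1543, 1804 and 1932 CPM in WT/flox, and Sparcl1, a relative of SPARC, at 1191, 983 and 755 CPM and 2458, 2583 and 3107 CPM. Fbn2, a microfibril protein of the embryo, was at 3.64, 4.37 and 2.35 CPM and 76.5, 30.4 and 45.7 CPM, with 74A1 highest. Fbln1, which joins elastic fibres and basement membranes, rose by 1.36 (SE 0.22), and missed without 72B7 (adjusted p = 0.0521). Vwa1, a perlecan-binding protein, fell from 214 ± 11.9 to 86.2 ± 34.01 CPM (SD, n = 3 each) and Has2, a hyaluronan synthase, from 101 ± 34.6 to 42.1 ± 9.35 CPM. Vwa1 missed without 73C3, 74A1 or 74A3 (up to 0.0879) and Has2 without 72B8, 73C3, 74A1 or 72B7 (up to 0.157). The number of higher members was 5 without 72B8 or 74A3, 4 without 74A1 and 3 without 72B7; that of lower members ran from 0 without 74A1 to 5 without 74A2.

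Among 63 tested cross-linkers, proteases and inhibitors 6 rose and 5 fell, with a median of 0.03; DESeq2 called 11 higher and 8 lower. Lox, the lysyl oxidase that cross-links collagen, was at 138, 249.97 and 278 CPM in WT and 681, 941 and 909 CPM in WT/flox (1.93, SE 0.28). The plasminogen activators went opposite ways. Plat, the tissue type, was at 263, 322 and 306 CPM and 556, 645 and 559.6 CPM, while Plau, the urokinase type, was at 1359.5, 1397 and 1276 CPM and 377, 659.6 and 616 CPM. The urokinase receptor Plaur was at 8.41, 8.74 and 13.2 CPM and 4.99, 4.49 and 4.78 CPM. No genotype overlap occurred in these 3, but Plat missed without 72B7 or 74A3 (adjusted p up to 0.0578), Plau without 74A3 (0.0541) and Plaur in all fits with 1 library left out except that without 74A2 (up to 0.131). Adamts8 rose (3.47, SE 0.39), and Adamts15 (-1.48, SE 0.21) and the tolloid protease Tll2 (-5.24, SE 0.60) fell. Higher members numbered 3 without 72B8 or 72B7 and 2 without 74A3, and lower members 3 without 72B7 or 74A3.

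A few genes of cell-surface adhesion and guidance were called. Of 43 tested cadherins and other adhesion molecules 5 were higher and 0 lower, with a median of 0.04. DESeq2 called 5 higher and 3 lower, limma voom 3 and 0, and 7 were higher and 6 lower unadjusted. Cdh11, the cadherin of mesenchyme, whose cytoplasmic end binds beta-catenin, was at 20.1, 16.6 and 28.1 CPM in WT and 143, 141 and 161 CPM in WT/flox (2.78, SE 0.21, edgeR adjusted p = 9.0e-05). Cadm1, an immunoglobulin-type adhesion molecule, was at 4.37, 4.52 and 2.88 CPM and 13.4, 11.5 and 10.6 CPM. The other 3 were Pcdh20, Chl1 and Cdh6, and 3 members were called without 72B8, 74A1, 72B7 or 74A3. In the axon guidance list 3 of 51 rose and 1 fell, with a median of -0.09. The share called was 7.84%, against 2.34% higher and 1.32% lower over all genes tested. DESeq2 called 5 higher and 1 lower, and 9 were higher and 5 lower unadjusted. The rises beside Nrp2 were the ephrin Efnb2, at 9.99, 14.99 and 12.4 CPM and 42.3, 32.1 and 35.6 CPM, and the Robo ligand Slit2, at 3.04, 3.16 and 3.41 CPM and 18.4, 7.81 and 16.5 CPM. The fall was that of Rgmb, a BMP co-receptor (-0.87, SE 0.15), whose call was lost without 72B8, 74A1, 72B7 or 74A3 (adjusted p up to 0.0711); without 73C3 the list had 2 lower members.

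Regulators of cell identity changed in both directions. Of 86 tested transcription factors of mesenchyme and patterning 6 rose and 3 fell (10.5% called), against 2.34% higher and 1.32% lower over all tested genes, with a median of 0.01; DESeq2 called 9 higher and 3 lower. Egr3, an early-response zinc finger factor, was at 9.07, 5.72 and 5.65 CPM in WT and 54.8, 72.2 and 65.9 CPM in WT/flox (3.24, SE 0.23, edgeR adjusted p = 7.8e-05). Meox1, a homeobox factor of the somite, was at 52.9, 47.1 and 71.3 CPM and 18.3, 19.6 and 17.7 CPM. Wt1, a factor of mesothelium and kidney, was at 0.132, 0.0753 and 0.0588 CPM and 7.78, 1.55 and 5.08 CPM, with 74A1 highest. Of 14 mesothelial markers in the table, Wt1 among them, Lrrn4, Krt8, Krt18 and Bnc1 had 0 counts in all 6 libraries, and Krt19 and Slc39a8 had the most, both with overlapping groups. The 14 together took 0.00124 to 0.00224% of WT counts and 0.00129 to 0.00193% of WT/flox counts, and their part in the Wt1 rise was not tested. Irx6, an Iroquois homeobox factor, was without a count in WT (0) and summed to 102 in WT/flox, at least 38.2-fold higher by the same floor. Klf2, a factor induced by flow and statins, fell from 554 ± 154 to 232 ± 48.2 CPM (SD, n = 3 each), and missed without 72B7 or 74A3 (adjusted p up to 0.123). The list's higher members numbered 2 without 72B8, 74A1, 72B7 or 74A3, and its lower members 1 without 74A3. None of 22 tested Hox genes was called by edgeR, DESeq2 or limma voom, with 2 higher and 1 lower at an unadjusted p under 0.05.

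Retinoid genes were among the lists with the larger shares called, 5 of 21 higher and 2 lower, with a median of 0.35. Stra6, the receptor that brings in retinol, was at 0.199, 1.88 and 1.71 CPM in WT and 12.9, 13.6 and 8.49 CPM in WT/flox. Lrat, which stores retinol as ester, summed to 1 count in WT and to 76 in WT/flox, 85.4 times as many after scaling, with an exact 95% interval of 14.9 to 3417. The enzymes that make retinoic acid went opposite ways: Aldh1a1 was at 83.8, 126 and 129.9 CPM and 186, 411 and 263 CPM, and Aldh1a2 at 62.8, 119 and 91.4 CPM and 26.6, 41.2 and 41.1 CPM. Tgm2, a transglutaminase known as a retinoic acid target, was at 80.2, 92.8 and 98.1 CPM and 187, 195 and 191 CPM. The calls of Tgm2 and Lrat passed with each library left out. Stra6 missed without 72B7 (adjusted p = 0.0587), Aldh1a1 in all fits but that without 74A1 (up to 0.127), and Aldh1a2 in all but that without 74A2 (up to 0.0803). Higher members numbered 3 without 72B8 or 74A3 and 2 without 72B7; lower members numbered 4 without 74A2 and 0 in the other 5 fits.

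Enzymes of xenobiotic and steroid metabolism gave 6 higher and 1 lower of 51, with a median of -0.04; DESeq2 called 7 and 4. Cyp2f2, a cytochrome P450 known from lung, was at 2.58, 1.58 and 2.71 CPM in WT and 134, 55.6 and 109 CPM in WT/flox, and the aldehyde oxidase Aox3 at 9.33, 10.8 and 11.1 CPM and 41.9, 39.8 and 50.2 CPM. The carboxylesterase Ces1f summed to 0 counts in WT and to 268 in WT/flox, at least 100.4-fold higher by the floor of 3 summed counts. It belongs to a cluster of near-identical genes, so reads may have been split among them. Higher members numbered 3 without 72B8 or 74A3, and the lower member, Sult5a1 (-1.16, SE 0.24), was lost without 74A2, 72B8, 74A1 or 74A3 (adjusted p up to 0.112).

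Signalling through prostanoids, cyclic AMP and ion channels changed in single genes. Ptger3, the inhibitory prostaglandin E2 receptor, was at 2.32, 1.05 and 1.12 CPM in WT and 20.03, 28.3 and 23.2 CPM in WT/flox, whereas Ptgir, the prostacyclin receptor, was at 56.5, 44.4 and 48.4 CPM and 19.7, 20.2 and 29.3 CPM. Ptgir missed without 74A1 or 72B7 (adjusted p up to 0.0731). In the prostanoid list 2 of 22 rose and 2 fell, with a median of 0.01, with 1 higher when any library but 73C3 was left out and 1 lower without 74A1, 72B7 or 74A3. Adcy1, a calcium-stimulated adenylyl cyclase, was at 0.199, 3.84 and 2.12 CPM and 83.2, 156 and 133 CPM. Pde7b, which breaks down cyclic AMP, rose as well, at 18.7, 19.7 and 15.8 CPM and 104, 78.7 and 106 CPM. Of 37 cyclases and phosphodiesterases 2 rose and 2 fell (Pde3a and Pde9a, with 4 lower by DESeq2), with a median of -0.05. The share called was 10.8%, against 2.34% higher and 1.32% lower over all genes tested. The falls numbered 1 without 72B8 and 0 without 72B7 or 74A3. The receptor gene Adra1d, for noradrenaline, was at 0.728, 1.66 and 1.94 CPM and 23.8, 24.2 and 24.3 CPM, and Gna14, a G protein of the Gq class, at 0.397, 0.527 and 0.588 CPM and 9.76, 17.5 and 12.2 CPM.

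Of 35 tested voltage-gated channel genes 4 rose and 2 fell, with a median of 0.03. Cacna1g, a T-type calcium channel, was at 60.3, 58.6 and 23.4 CPM in WT and 502, 495 and 526 CPM in WT/flox (3.42, SE 0.34, edgeR adjusted p = 4.7e-04). Kcne4, a potassium channel subunit, was at 7.61, 9.79 and 8.88 CPM and 88.4, 209 and 144 CPM, and Kcnj2, an inward rectifier, at 0.331, 0.377 and 0.294 CPM and 3.01, 5.53 and 3.71 CPM. The WT/flox libraries of Cacna1g lay close together while the WT library 73C3 was below the other WT libraries. The falls, Kcna2 (-2.29) and Kcnk5 (-0.88), numbered 1 without 74A2 or 72B7 and 0 without 72B8, 74A1 or 74A3.

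Most cell-cycle genes were not called. Of 39 tested 3 rose and 0 fell (2 lower unadjusted, 2 by DESeq2, 0 by limma voom and 1 by edgeR without 72B7). The median was 0.08. The 3 that rose were 7.69% of those tested, against 2.34% higher over all genes tested. Beside Ccnd1 they were 2 inhibitors of the kinases that cyclin D activates: Cdkn2b, at 0.397, 0.603 and 0.588 CPM in WT and 9.69, 14.4 and 7.43 CPM in WT/flox, and Cdkn2c, at 3.31, 4.52 and 5.12 CPM and 7.41, 11.4 and 9.93 CPM. Cdkn2b passed with each library left out, and Cdkn2c missed without 74A2, 72B8, 72B7 or 74A3 (adjusted p up to 0.148). Mki67, a marker of dividing cells given after its value was seen, was at 1.06, 4.22 and 0.353 CPM and 10.1, 1.03 and 7.96 CPM; the groups overlapped (edgeR adjusted p = 0.544).

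Lists of basic metabolism, the unfolded protein response, nuclear receptors and adipogenic genes had no called member in edgeR. Over all genes tested 2.34% were called higher and 1.32% lower, so in lists of 21 to 37 genes 0 called is close to the background. Of 75 oxidative phosphorylation subunits 0 were called by edgeR, by DESeq2, by limma voom or at an unadjusted p under 0.05, and their log2 fold changes ran from -0.57 to 0.28. For 30 glycolysis genes edgeR, DESeq2 and limma voom called 0, with 3 lower unadjusted. Among 34 cholesterol and fatty acid synthesis genes 1 was higher unadjusted and by DESeq2, and 0 by limma voom. For 37 genes of the unfolded protein response 1 was higher and 1 lower unadjusted, DESeq2 called 1 lower and limma voom 0. Of 29 nuclear receptors 4 were higher and 2 lower unadjusted, DESeq2 called 1 higher and limma voom 0. The 21 adipogenic genes gave 2 higher and 2 lower unadjusted and 0 by DESeq2 or limma voom, Pparg being at 5.23, 2.41 and 2.18 CPM in WT and 1.83, 1.18 and 0.607 CPM in WT/flox with an edgeR adjusted p of 0.205. With 1 library left out, edgeR called 1 adipogenic gene higher and 1 unfolded protein response gene lower, both without 74A2.

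Some genes with a large loss of CPM were in none of the gene lists. Myoc, the secreted glycoprotein myocilin, was at 2485, 2755 and 3466 CPM in WT and 946, 1203 and 1002 CPM in WT/flox (-1.47, SE 0.21, edgeR adjusted p = 0.0036). Abca8b, a lipid transporter, was at 976, 1021 and 789.5 CPM and 412, 417 and 448 CPM, and Prss23, a secreted serine protease, at 462, 533 and 439 CPM and 214, 222 and 220.1 CPM. The WT/flox libraries of Prss23 lay close together, and none of the 3 genes overlapped. By fold, larger falls were those of Mgam, a maltase (-2.40, SE 0.34), Nptx2, a neuronal pentraxin (-2.29, SE 0.31), Slc43a2, an amino acid transporter (-2.04, SE 0.30), Plxdc1 (-2.04, SE 0.28) and the bombesin-like peptide gene Nmb (-1.97, SE 0.33). All passed with each library left out.

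Markers of progenitor subsets and of other cells were set beside these changes. Of 17 tested markers of the Dpp4 and Pi16 subset 1 was higher, Axin2, and 0 lower, with a median of -0.38; DESeq2 called 3 higher and 3 lower, limma voom 1 and 0, and 3 were higher and 6 lower unadjusted. EdgeR called 2 lower without 74A2, 1 lower without 72B8 and 3 higher without 73C3. These markers together took 1.92 to 2.91% of counts in WT libraries and 1.395 to 1.783% in WT/flox libraries, with no overlap between genotypes, and the part of this in the changes described above was not tested. Of 16 markers of the Cxcl14 and Smoc2 subset 0 were higher (4 unadjusted, 4 by DESeq2, 0 by limma voom) and 4 lower (Gdf10, Vwa1, Mme and Col15a1), with a median of -0.43. DESeq2 called 6 lower and limma voom 3. Together these 16 took 1.36 to 2.04% of WT counts and 1.21 to 1.77% of WT/flox counts, with overlap. Smoc2 was at 4767, 3428 and 3192 CPM in WT and 1958, 2786 and 2316 CPM in WT/flox (adjusted p = 0.189), and Cxcl14, given after its value was seen, stood the other way, at 1186, 1113 and 758 CPM and 1437, 3817 and 2112 CPM (edgeR adjusted p = 0.0902). The count of lower members was 2 without 74A2, 72B8 or 72B7 and 1 without 74A1 or 74A3, and that of higher members 2 without 73C3 and 1 without 74A1. Of 14 tenocyte markers 3 were higher (Cpxm2, Thbs4 and Mkx) and 1 lower (Cilp2), with a median of -0.60; 1 was higher without 74A2, 72B8, 74A1, 72B7 or 74A3, and 2 were lower without 74A2 and 0 without 72B8, 73C3, 74A1 or 74A3.

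Myofibre transcripts took 0.0501 to 0.0857% of WT counts and 0.0444 to 0.0546% of WT/flox counts. Of 17 tested, 0 were called by edgeR or limma voom, while 12 were lower unadjusted and 7 by DESeq2, with a median of -1.48; without 72B8 edgeR called 10 lower. Their part in the falls described above was not tested. Mural markers accounted for 0.0247 to 0.0339% of counts in the WT libraries against 0.0159 to 0.0198% with the floxed allele. Of 11 tested 1 was lower, Cspg4, which encodes the proteoglycan NG2, and the median was -0.07. Cspg4 was at 219, 127 and 95.6 CPM in WT and 36.98, 26.7 and 29.6 CPM in WT/flox. It was the most abundant of these markers and is counted in their shares, so the shares do not show a fall of the others. Endothelial markers took 0.0269 to 0.0306% of WT counts and 0.0328 to 0.0381% of WT/flox counts, with Kdr counted in both. Kdr was among their 2 most abundant members, so the shares do not show a rise of the other markers. The median log2 fold change of the 18 was -0.22. The call of Plvap, the lower member, was lost without 74A1 or 74A3 (edgeR adjusted p up to 0.0776). Of 16 tested markers of progenitor identity 3 were higher, Tcf7l2, Col1a1 and Col1a2, and 0 lower (3 unadjusted, 0 by DESeq2 or limma voom), with a median of 0.09; 1 was higher without 74A1.

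Muscle stem cell markers took 0.0197 to 0.0302% of WT counts and 0.0160 to 0.0197% of WT/flox counts. Of the 15 in the table Myf5, Cdh15 and Calcr had 0 counts in all 6 libraries, and Sdc4 and Des had the most. Of 7 tested, 1 was called, with a median of -0.66. It was Heyl, a Notch effector, at 32.4, 14.8 and 28.8 CPM in WT and 9.47, 9.65 and 12.7 CPM in WT/flox; the lower call was lost in every fit with 1 library left out except that without 72B8 (adjusted p up to 0.176). Epithelial and keratinocyte markers took 0.00107 to 0.00133% and 0.00144 to 0.00259%, without overlap between genotypes. Of those 14, 6 had 0 counts throughout, Epcam, Krt5 and Krt14 among them, and 1 of 4 tested was called. It was Trp63, which encodes p63, a factor of basal epithelium, at 2.32, 3.16 and 1.76 CPM in WT and 6.02, 15.3 and 7.05 CPM in WT/flox, where 72B7 was highest. The call was lost without 74A2, 73C3 or 72B7 (edgeR adjusted p up to 0.0756). Trp63 was the most abundant of the epithelial markers and is counted in their shares, so the shares do not show a rise of the others. Of 12 fat cell markers, which took at most 0.000656% of counts, 4 were at 0 throughout, Cidec, Lep and Retn among them, and of 3 tested edgeR, DESeq2 and limma voom called 0, as did an unadjusted p under 0.05. Of 15 tested markers of activated progenitors 1 was higher, Lox, and 2 lower, Tek and Ccl2 (1 without 72B7), with a median of -0.53, at 0.214 to 0.2196% of WT counts and 0.206 to 0.2545% of WT/flox counts. Cartilage and bone markers gave 1 lower of 8 tested, Sox9, with a median of -1.12, at 0.00894 to 0.0108% and 0.00579 to 0.00919%, and the Sox9 call was lost without 74A2, 73C3, 74A1 or 74A3 (adjusted p up to 0.148). Of 12 tested glial markers edgeR, DESeq2 and limma voom called 0, with 1 lower unadjusted and a median of -0.41, at 0.0513 to 0.0658% and 0.0549 to 0.0630%. The part of these markers in the changes described above was not tested.

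Library 74A3, the only one at day 56, was set beside the 2 WT/flox libraries of day 14, with no test because it stands alone. On the log2(CPM + 0.5) scale it lay more than 1 from the mean of those libraries for 1.46% of tested genes, 3.10% of the genes called higher and 0.610% of those called lower. The 2 day-14 libraries were more than 1 apart from each other for 3.61, 11.03 and 6.71% of the same sets, a wider measure since it takes no mean. The median difference of 74A3 from their mean was 0.04 over genes called higher and -0.01 over genes called lower. The calls themselves used 74A3 as 1 of 3 WT/flox libraries, and a departure of 74A3 widens the spread that a call must pass. The values for called genes therefore describe those genes and do not test the day. Lipg, an endothelial-type lipase, lay farthest below (-1.41), at 15.2, 4.42 and 2.81 CPM, and F5, coagulation factor V, farthest above (1.19), at 3.01, 1.25 and 5.16 CPM. Ptn (-1.09) and Lrat (-1.11) were also below the day-14 mean, and Enho, a secreted peptide gene that fell in WT/flox, lay further down at day 56 (-1.08). The Lipg call was lost without 72B8 or 73C3 (adjusted p up to 0.105) and that of Enho without 74A2, 73C3, 74A1 or 74A3 (up to 0.125).

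**Figure D5:**
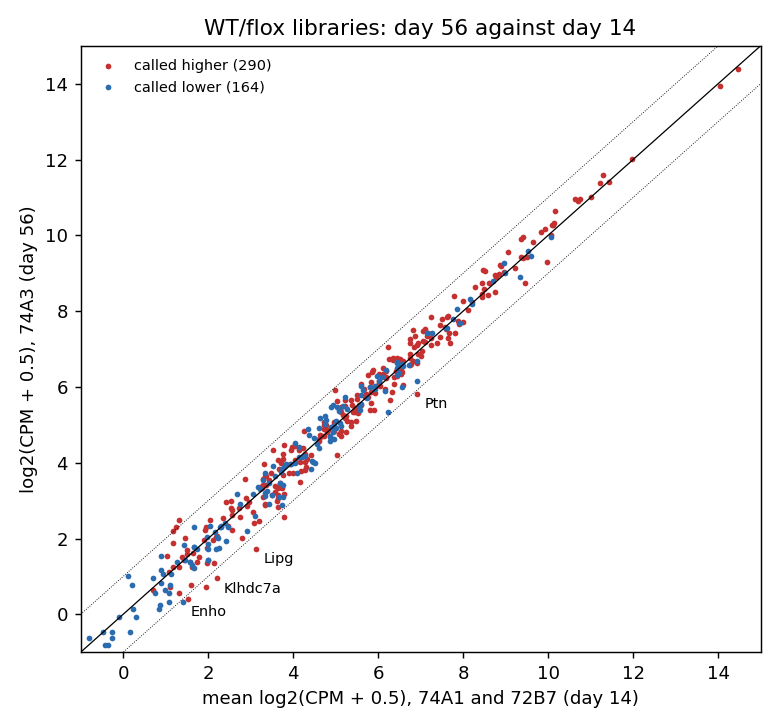
Expression of the 454 called genes in WT/flox library 74A3 (day 56, vertical axis) against the mean of WT/flox libraries 74A1 and 72B7 (day 14, horizontal axis), both log2(CPM + 0.5). Library 74A3 was among those used to call the genes. The solid line is equality and dotted lines lie 1 log2 unit away; of the red genes (higher in WT/flox) 3 lie above and 6 below those lines, and of the blue genes (lower) 0 and 1.

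Promoters of the genes that moved were searched for the TCF/LEF site, spelled CTTTGAT or CTTTGAA and read on both strands, in RefSeq windows of 300 bases (GRCm38.p6) that run from 250 bases before to 50 after a start site. RefSeq promoters were found for 208 of the 290 higher and 110 of the 164 lower genes. The site was present in 24 of 277 promoters of higher genes (8.66%) and 11 of 152 of lower genes (7.24%), against 5.73% of promoters of all tested genes and 8.65% of all RefSeq promoters. The 24 are not all separate: the overlapping windows of Aldh1a1 and E030003E18Rik share a site, as do those of Tmem176a and Tmem176b. The shorter string CTTTGA, which both spellings contain, occurred in 13.4, 13.8, 11.6 and 16.0%, in the same order. Promoters were found for 7 of the 10 Wnt targets that rose, and not for Notum, Apcdd1 or Ccnd1. Of their 9 promoters 1 held the site, 1 of the 2 of Tnfrsf19. It is shown with those of Cpz and Nrp2, which also rose, as examples of where the letters stand; capitals mark the match, 202, 224 and 146 bases before the start site, and a match describes letters and not binding.
Tnfrsf19, chr14:61037938-61038237, minus strand: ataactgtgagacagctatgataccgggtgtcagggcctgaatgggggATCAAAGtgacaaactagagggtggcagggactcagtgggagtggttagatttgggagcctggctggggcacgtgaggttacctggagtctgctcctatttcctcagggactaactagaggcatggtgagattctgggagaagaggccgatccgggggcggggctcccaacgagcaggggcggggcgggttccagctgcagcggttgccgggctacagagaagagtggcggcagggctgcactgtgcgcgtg
Cpz, chr5:35525577-35525876, minus strand: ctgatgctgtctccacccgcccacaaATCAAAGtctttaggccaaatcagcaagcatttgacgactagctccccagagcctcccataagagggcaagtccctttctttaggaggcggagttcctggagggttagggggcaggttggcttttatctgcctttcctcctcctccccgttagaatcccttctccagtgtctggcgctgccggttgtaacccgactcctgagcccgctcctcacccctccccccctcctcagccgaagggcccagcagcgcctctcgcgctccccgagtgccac
Nrp2, chr1:62703067-62703366, plus strand: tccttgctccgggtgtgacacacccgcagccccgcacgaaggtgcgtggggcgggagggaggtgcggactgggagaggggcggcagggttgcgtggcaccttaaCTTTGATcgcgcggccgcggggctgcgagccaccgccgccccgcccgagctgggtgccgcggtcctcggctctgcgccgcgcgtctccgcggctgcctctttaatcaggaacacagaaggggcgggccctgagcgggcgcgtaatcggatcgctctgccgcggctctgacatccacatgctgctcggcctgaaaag
In Tnfrsf19 and Cpz the capitals read ATCAAAG, the other-strand form of CTTTGAT, and in Nrp2 they read CTTTGAT. Windows of this size hold no distant enhancers, so a missing match says only that these letters are not in these bases.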

How the data were processed

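Stranded mRNA libraries of sorted progenitors were sequenced as read pairs, per the labels' protocols. Tools named in the submitters' processing notes are STAR, Bowtie and bcl2fastq 2.20, with mm10 as the build; which program counted reads, and whether it used strand, is not given in the sources used here. Whole-number counts were deposited for 24421 gene symbols, of which 23376 matched GENCODE M21. Since strand use is unknown, reads of overlapping opposite-strand genes cannot be told apart: 82 of 186 named genes have such a neighbour, among them Ctnnb1, Axin2, Notum, Bmp6, Ccnd1, Col4a1, Nrp2, Tgm2 and Tnfrsf19.

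Counts were tested with edgeR 4.0.16 in R 4.3.3 (filterByExpr with a minimum count of 10, TMM scaling, robust quasi-likelihood F test, two-sided, Benjamini-Hochberg adjustment over 12392 genes, threshold 0.05), with genotype as the only term. SEs are those implied by the F statistic. A fold against 0 counts was set against a floor of 3 counts, and such bounds and counting intervals cover counting error only. Alternatives were DESeq2 1.42.0, limma voom 3.58.1, other scalings and filters, sex or the identifier prefix as a term, and each library left out in turn. The code was tested on simulated data.

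The comparison, the 31 gene lists and the marker lists were chosen with earlier results of these data known. Named genes are Ctnnb1, Hic1 and the genes of the sort; called genes with the largest rises and falls in CPM and in fold; called members of each list by adjusted p; abundant markers; genes with 0 counts in 1 genotype; and genes farthest off in 74A3. Others were chosen after their values were seen, namely Gfra1, Gli1, Mki67, Cxcl14, Pdgfra, Pparg and Dkk1, together with markers at 0 counts and members of larger lists beyond the first 4. Some named genes are not reported here.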

Additional observations from a re-analysis of the deposited data

How the results depend on the processing

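The 454 called genes kept their sign in every alternative fit that tested them (389 were tested when 10 counts were required in every library). Since none of them overlapped between genotypes, this outcome was nearly fixed in advance and is not separate support. DESeq2 called 755 genes, 437 higher and 318 lower, including 453 of the 454. With each library left out in turn the count ran from 262 to 483 genes, higher genes from 192 to 287 and lower genes from 66 to 196, and the share called higher was 75.3% without 74A1, 74.8% without 74A3 and 72.2% without 72B7, against 63.9%. Of 204 called genes named or listed, 108 passed in all 6 of those fits. Identifier prefix as a term gave 566 calls (382 shared with the 454) and sex as a term 546 (447 shared). The WT library 73C3 is alone in its prefix, so it adds nothing to the genotype comparison in the prefix fit.

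The authors' sample table numbers the animals 1 to 3 in each genotype. Same-numbered animals deviated together with correlations of 0.29, 0.03 and -0.13. They were also of the same sex. So few values cannot decide whether the numbers pair the animals, and the sources used here do not say what the numbers stand for. A fit with this number as a replicate block, chosen after seeing the data, called 491 genes, 396 of them among the 454. At this depth genes under about 10 counts were not tested, and groups of 3 limit smaller changes.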
